A study of Homo sapiens with 96 samples.

Results

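Voltage-gated sodium, potassium, calcium and HCN channel genes were followed through neural differentiation of human stem cells and through exposure to 5 developmental neurotoxicants. The members were taken by symbol from the protein-coding genes: SCN genes, KCN genes, CACN genes and the HCN genes, which gave 139 of the 58434 genes in the table (19879 of them protein-coding). They include the pore-forming subunits, their accessory subunits, and relatives that share the naming but are not themselves opened by voltage, such as inward rectifier and two-pore domain potassium channels. By role they fell into 17 groups, from 3 T-type calcium channel pore subunits to 17 Kv1 to Kv4 potassium channel pore subunits.

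Polyadenylated RNA was sequenced with a stranded kit in 96 libraries, 8 in each of 12 groups, all descending from the human embryonic stem cell line H9, a long-established line. Neural progenitor cells (NPC) were sampled on day 0. The other groups were day 10 cultures described as neurons with astrocytes: an unexposed control, and acrylamide, chlorpyrifos, fluoxetine, methyl mercury and valproic acid, each at the 2 concentrations IC5 and IC20/100. IC5 is taken as the dose that inhibits by 5%, and IC20/100 as a 100-fold dilution of the dose that inhibits by 20%; molar doses and exposure times are not stated in the sources used here. Medium was the solvent of acrylamide and valproic acid, whereas chlorpyrifos, fluoxetine and methyl mercury were brought in with dimethyl sulfoxide (DMSO, 0.25% in the final medium). Those sources do not state if DMSO was added to controls, so an effect of the vehicle and one of these 3 compounds cannot be told apart. All day 10 groups shared a medium with BDNF, GDNF, dibutyryl cAMP and ascorbic acid. Per the labels, each group's 8 libraries are technical replicates from 1 experiment, and all p-values measure only the spread between such libraries.

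Voltage-gated channels open or close with the potential across the membrane: sodium channels carry the upstroke of the action potential, potassium channels end it and set the firing pattern, and calcium channels turn it into calcium entry and transmitter release. HCN channels are opened by hyperpolarization, some of them more readily with cyclic AMP, and help to set resting potential and rhythm. Which family members a neuron makes changes as it matures, and progenitors already express several channels, since potassium conductances take part in cell cycle control and in setting the resting potential.

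Recovered read totals were 9.49 to 29.63 M (megareads) per library, the median being 18.94 M. The unit throughout is the deposited signal, that is reads divided by 1 size factor per library, with no correction for gene length. The library of methyl mercury IC20/100 replicate 8 stood apart, with a deposited total of 20.95 M against 18.11 to 18.99 M in the rest of the day 10 libraries. It held 11 of the 58 values of named members that lay far from the rest of their group. Without it the count of members called for methyl mercury IC20/100 went from 21 to 23. The labels were checked against marker genes. The summed signal of 15 neuron markers was 80898 to 87110 in NPC and 110571 to 117385 in controls, and 11 of the 15 rose and 2 fell with differentiation. All 10 markers of dividing cells fell, from a sum of 37300 to 42417 to one of 14219 to 18710, and stayed detected in the controls. Progenitor markers moved in both directions. Of 10, 5 fell (FABP7, HES1, LIN28A, NES and SOX1) and 5 rose (HES5, MSI1, PAX6, SOX2 and VIM). Each of them except SOX2 had no overlap between the groups. NES fell from a median of 28656 to 15341 and FABP7 from 19007 to 3283, while VIM rose from 46826 to 72177. The sums of the 10 markers overlapped, at 103910 to 110002 in NPC and 100319 to 107482 in controls. Of 10 astrocyte markers, SLC1A2, SLC1A3 and SOX9 were well detected in controls, but GFAP had a median of 23.1 and AQP4 of 3.5, so these defining markers of mature astrocytes were low. In bulk RNA, fewer cells of a type and less RNA per cell cannot be told apart.

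Most of the 139 members were detected at some level, with gamma family genes at the highest levels. In the controls the highest levels per kb of merged exons belonged to CACNG4, with a median of 849 signal units per kb (mean 853 ± 32.7, SD, n = 8), and CACNG7, with 837 (865 ± 72.8). Both encode members of the gamma family; CACNG4 and CACNG7 are known as transmembrane AMPA receptor regulatory proteins (TARPs) rather than as parts of calcium channels. The 2 genes did not differ beyond their spread. Other members with high levels included HCN3 at 303, CACNA1H at 265, KCNH8 at 258, CACNA2D2 at 243, SCN3B at 214, KCNH2 at 213 and SCN3A at 201 per kb (medians). Neighbours among the genes named here differed in their means by less than the sum of their SDs, except between CACNG7 and HCN3 and between CACNA2D2 and SCN3B. At the other end, 27 members had a mean under 10 signal units in every group, and KCNA6 and KCNJ18 were at 0 in all 96 libraries. KCNJ18 is nearly identical to KCNJ12, so any reads from KCNJ18 may have been counted for KCNJ12 or for neither gene, and both values are uncertain. Requiring 8 libraries at 10 or more left 106 members for the differentiation test and 109 for the exposures. Of those 106, 8 reached 10 in 1 of the 2 groups only and so had to differ: CACNG3, KCNC2, KCNIP4 and KCNS2 in controls, and KCNE5, KCNJ16, KCNK1 and KCNQ5 in NPC. They are part of the counts below, and their values are given as a description, with no p-value. The 30 left out for the exposures included the sodium channel gene SCN10A, the calcium channel genes CACNA1S and CACNA2D4, and potassium channel genes such as KCNA1, KCNA6, KCNA10, KCNE2, KCNE3, KCNH6, KCNJ1, KCNJ13, KCNJ16, KCNK1, KCNK4, KCNK18, KCNN4, KCNQ1, KCNQ5 and KCNV2.

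The first comparison asked how channel expression changed between progenitors and day 10 cultures. Channel genes changed often and mostly upward: 64 of the 106 tested members rose and 22 fell (limma, adjusted p under 0.05). Without the 8 members that had to differ, 60 of 98 rose and 18 fell. Over all 18063 genes tested 70.7% were called, 33.9% higher and 36.8% lower, against 81.1% of the members, 60.4% higher and 20.8% lower. The median log2 difference was 0.45 for the members and -0.01 for all genes.

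**Figure D1:**
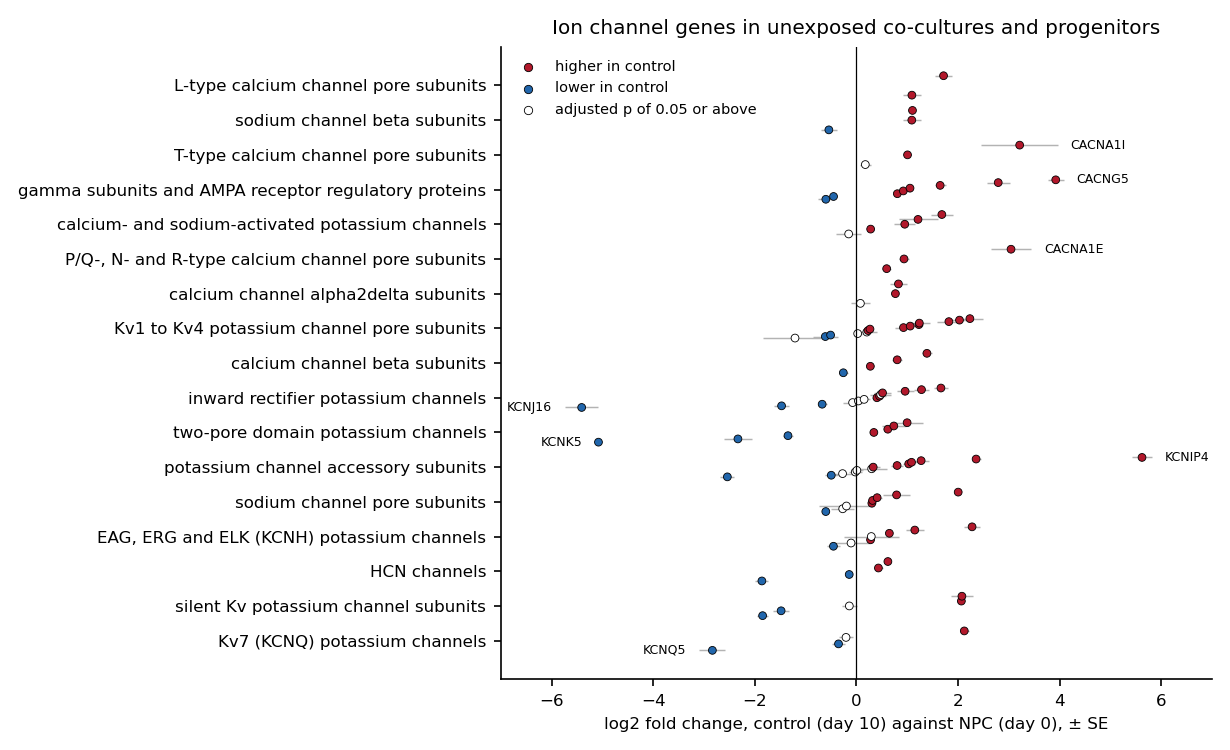
Log2 difference between day 10 controls and NPC for each of the 106 tested channel genes (x axis, points with SE as bars), by role (y axis); colour marks genes called higher, called lower or not called. KCNIP4 (5.62) and CACNG5 (3.92) lie farthest to the right among the labelled genes and KCNJ16 (-5.41) and KCNK5 (-5.08) farthest to the left; KCNIP4 and KCNJ16 are among the 8 genes that had to differ.

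Among sodium channels, 5 of the 8 tested pore subunits rose (SCN1A, SCN2A, SCN3A, SCN9A and SCN11A) and SCN8A fell. SCN2A encodes Nav1.2, the main sodium channel of immature axons. Its signal was 131, 163 and 177 in NPC (lowest, median and highest of the 8 libraries, the order used from here on) and 524, 624 and 729 in controls. The groups did not overlap, and the log2 difference was 2.00 ± 0.06 (SE; adjusted p = 1.37e-10 by limma, as for all adjusted p-values here). SCN8A encodes Nav1.6, the channel that dominates mature initial segments. It was at 1771, 1923 and 2127 in NPC and at 1081, 1323 and 1355 in controls, a fall of -0.60 ± 0.06 (adjusted p = 1.8e-06) with no overlap. SCN3A, the fetal subunit, was the most abundant pore subunit per length at day 10 and rose by only 0.32 ± 0.07 on the log2 scale, with overlapping groups. SCN1A, at a median of 79.9 in NPC and 116 in controls, overlapped too (0.79 ± 0.26, adjusted p = 0.0168), and its call was lost without control replicate 5 (limma adjusted p = 0.0545) or NPC replicate 4 (0.0662). Of the beta subunits, which anchor and tune the pore, SCN3B went from 895, 958 and 1022 to 1945, 2023 and 2115 (1.10 ± 0.04, adjusted p = 1.16e-10). SCN4B also rose (1.09 ± 0.18), with overlapping groups.

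All 3 presynaptic-type calcium channel pore genes rose. CACNA1E, the R-type subunit, was at 48.8, 128 and 481 in NPC and 564, 1036 and 2048 in controls (3.04 ± 0.40, adjusted p = 2.3e-05). CACNA1A (P/Q-type) rose by 0.94 ± 0.10 from a mean of 406 to 775 and CACNA1B (N-type) by 0.60 ± 0.08 from 613 to 935. For all 3 genes every control library lay above every NPC library. Both tested L-type genes rose as well, CACNA1D by 1.72 ± 0.16 (median 74.4 to 221) and CACNA1C by 1.09 ± 0.18 (183 to 380). L-type channels couple activity to gene expression.

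The low-voltage-activated T-type genes did not move as 1 family. CACNA1H (Cav3.2) rose from 1079, 1166 and 1276 to 2049, 2283 and 3147 (1.01 ± 0.07, adjusted p = 5.8e-08). CACNA1G (Cav3.1) was at 104, 134 and 162 in NPC and at 133, 155 and 194 in controls and was not called (0.18 ± 0.11, adjusted p = 0.185). For CACNA1I (Cav3.3) the control mean was 823 ± 1332 but the control median 109: replicates 5 and 7 were far above the rest, and the highest held 3015. Its NPC libraries ran from 18.7 to 31.8 with a median of 27.3, and every control library lay above them, the lowest at 91.6. The fitted log2 difference was 3.21 ± 0.75 (adjusted p = 0.00221), 2.44 without control replicate 5 (adjusted p = 0.00737) and 2.05 with robust regression.

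Most tested genes of the calcium channel beta, alpha2delta and gamma families rose. CACNB4, a beta subunit that brings the pore to the surface, went from a median of 279 to 758 (1.39 ± 0.10), and 3 of 4 beta genes rose while CACNB2 fell (-0.26 ± 0.09). Of 3 tested alpha2delta genes, which raise channel number at the synapse, 2 rose, CACNA2D2 from a median of 900 to 1538 (0.77 ± 0.05, adjusted p = 3.43e-08) and CACNA2D3 from 61.3 to 106. In the gamma family 6 of 8 rose and 2 fell. CACNG5 went from 4.47, 9.16 and 13.3 to 146, 165 and 216 (3.92 ± 0.16, adjusted p = 7.02e-10), and CACNG2, or stargazin, rose by 1.65 ± 0.11. CACNG3, which had to differ, was 2.79 higher on the log2 scale. CACNG7 rose by 1.06 ± 0.06 from a median of 1203 to 2343, while CACNG4 fell from 3904 to 2869 (-0.45 ± 0.03, adjusted p = 7.67e-08). In this family 3 genes are neighbours on chromosome 17 (GRCh38): CACNG5 at 66835117 to 66885486, CACNG4 at 66964910 to 67033398 and CACNG1 at 67044590 to 67056797. Over this stretch the log2 differences were 3.92, -0.45 and -0.60.

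Potassium channel genes moved in both directions. Of the Kv1 to Kv4 pores, which shape repolarization, 9 of 14 rose and 2 fell. KCND2 (Kv4.2, the A-type current of dendrites) went from a median of 25 to 118 (2.23 ± 0.25) and KCNA2 from 122 to 243 (0.93 ± 0.16), while KCNA3 fell from 103 to 71.6 (-0.51 ± 0.08). KCNIP4, a calcium sensor that binds Kv4 channels, was at 1.79, 3.12 and 7.27 in NPC and 216, 280 and 303 in controls (log2 difference 5.62). All its NPC values were under the filter of 10, so it had to differ. KCNIP1, of the same family, rose from a median of 46 to 241 (2.36 ± 0.09). In all, 7 of the 13 tested accessory genes rose and 2 fell.

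KCNQ3 (Kv7.3), a pore subunit of the M-current that restrains repetitive firing in neurons, went from 76.8, 94 and 120 to 351, 434 and 532 (2.12 ± 0.09, adjusted p = 1.44e-09). KCNQ5, which passed the filter through NPC only and had to differ, was at a median of 25.9 in NPC and 2.03 in controls. Of the KCNH family, KCNH1 (EAG) rose by 2.28 ± 0.15 and KCNH2 (ERG) by 0.65 ± 0.05. Among the silent Kv subunits, which form channels only with Kv2 partners, KCNG1 rose from a median of 110 to 475 (2.07 ± 0.08) while KCNF1 fell from 122 to 32.7 (-1.85 ± 0.10) and KCNS3 from 54.7 to 16.9 (-1.48 ± 0.15). The small-conductance calcium-activated KCNN3 rose by 1.68 ± 0.21 and the BK pore KCNMA1 by 0.95 ± 0.21, with overlap in both.

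Several leak and inward rectifier channel genes fell. KCNK5 (TASK-2), a pH-sensitive two-pore channel, dropped from 982, 1080 and 1213 in NPC to 26.1, 29.9 and 40.1 in controls (-5.08 ± 0.06, adjusted p = 1.07e-13). KCNJ10 (Kir4.1), the main glial inward rectifier, fell from a median of 82 to 33.2 (-1.47 ± 0.15). Its usual partner KCNJ16 (Kir5.1) was at 186, 242 and 266 in NPC and 0, 3.36 and 9.95 in controls (log2 difference -5.41), and since all control values were under the filter it had to differ. KCNK2 (TREK-1) fell from 418 to 172 (-1.35 ± 0.11). Against these, KCNJ9 (Kir3.3, opened by G proteins) rose from 41.7 to 132 (1.66 ± 0.14) and KCNK3 (TASK-1) from 91.2 to 148 (0.62 ± 0.10). HCN3 (0.62 ± 0.06) and HCN2 (0.43 ± 0.09), which carry the hyperpolarization-activated current, rose, and HCN4 fell slightly (-0.14 ± 0.04).

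Channel partners from a separate list of 30 genes, which are no members, mostly rose as well: 17 rose and 4 fell. The rises included FGF14, which binds sodium channels, from a mean of 86.6 to 303 (1.86), the sodium leak channel NALCN from 49.8 to 145.8 (1.49) and the initial segment spectrin SPTBN4 (3.02), and the falls included FGF12 and FGF13. The part that cell composition, including the neuron and dividing cell markers above, had in these differences was not tested.

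Each exposed group was then compared with the same 8 controls, so these comparisons are not independent of each other. At IC20/100, acrylamide and valproic acid left 0 of 109 members called, where 0.0596% and 2.54% of all 20136 genes were called. At an unadjusted p under 0.05 there were 6 and 15 members, and on recovered reads edgeR called 0 and 1 and DESeq2 1 and 4. In the other 8 comparisons 21 to 50 members were called. For most of them more members were lower than higher. The plot of shares called sets each count beside that of all genes.

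**Figure D2:**
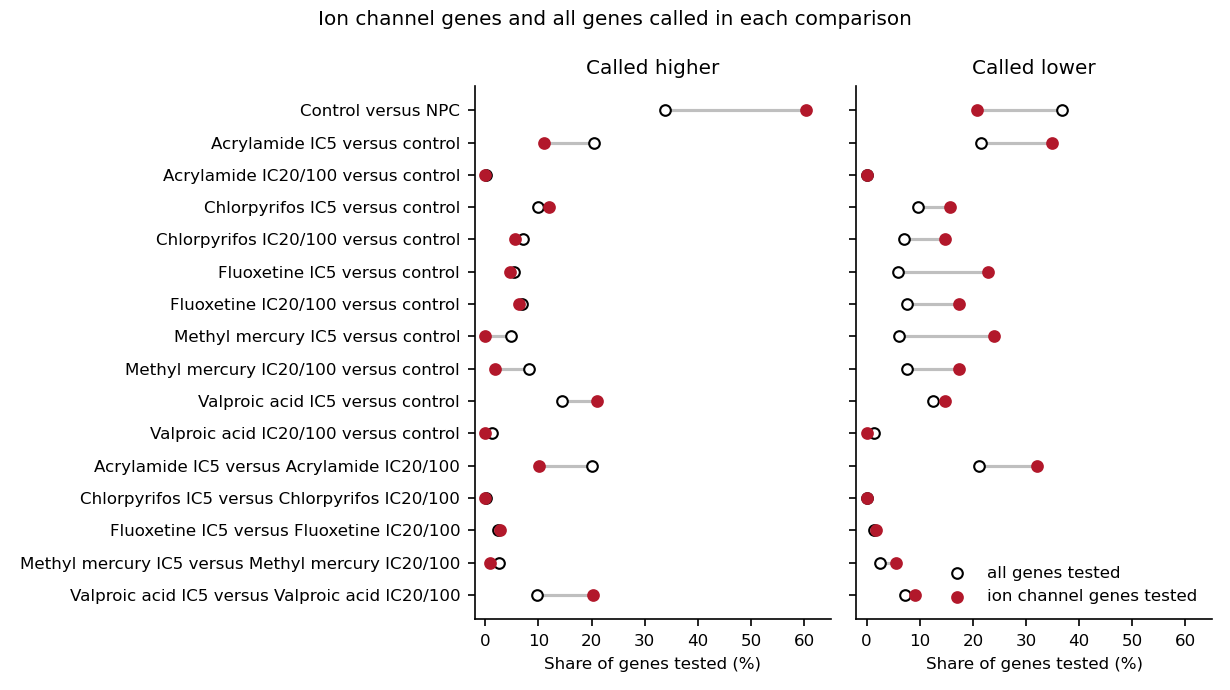
Percent of tested genes called higher or lower in each comparison, for all genes tested and for the 109 tested channel genes. Methyl mercury IC5 has 23.9% of the channel genes lower and 0% higher, against 6.06% and 4.85% of all genes, and valproic acid IC5 has 21.1% higher and 14.7% lower, against 14.5% and 12.4%.

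Acrylamide IC5 gave the longest list: 50 of 109 members (45.9%), 12 higher and 38 lower, against 42% of all genes, of which 20.5% were higher and 21.5% lower. The share called either way was near that of all genes, while the members' lower share was 34.9%. The strongest evidence was at CACNG7, a TARP, with 2184, 2343 and 2752 in controls and 853, 1062 and 1363 in exposed cultures (-1.15 ± 0.07, adjusted p = 3.41e-24). KCNQ3 was at 351, 434 and 532 in controls and 157, 164 and 180 with acrylamide (-1.41 ± 0.10, adjusted p = 8.14e-20). Neither gene's groups overlapped. In the gamma family 6 of 8 genes were lower, CACNG8 among them (median 226 to 122, -0.91 ± 0.06), whereas CACNG4 was higher, at 3471, 3642 and 3803 against 2716, 2869 and 3046 (0.34 ± 0.03, adjusted p = 5.2e-15).

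Lower potassium channel genes under acrylamide IC5 spanned several roles. KCNF1, a silent subunit, was at a median of 11.7 against 32.7 (-1.42 ± 0.15), KCNMB1, a BK beta subunit, at 32.3 against 73.7 (-1.08 ± 0.12) and KCNJ9 at 68.3 against 132 (-0.95 ± 0.09). KCNT2, a sodium-activated potassium channel, was at 210 against 392 (-0.95 ± 0.09), KCNK3 at 81.6 against 148 (-0.91 ± 0.13), and KCNIP1 and KCNIP4 were each lower by 0.57 ± 0.09 on the log2 scale. Of the inward rectifiers 0 were higher and 5 lower, and the alpha2delta gene CACNA2D2 was lower at 1065 against 1538 (-0.50 ± 0.04, adjusted p = 1.93e-20). Sodium channel genes were mixed: SCN2A (-0.29 ± 0.07) and SCN3B (-0.21 ± 0.04) were lower. SCN8A was called higher, at a median of 1583 against 1323 (0.49 ± 0.18, adjusted p = 0.0205), but 1 library held 5773 and without that library, acrylamide IC5 replicate 7, the value was 0.26 (adjusted p = 0.17). SCN1A was called higher at 126, 639 and 1681 against 53.5, 116 and 265 (1.88 ± 0.65, adjusted p = 0.0144), and the call was lost without acrylamide IC5 replicate 4 (1.56, adjusted p = 0.052).

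Cell type markers moved beside the acrylamide results: 9 of 10 markers of dividing cells were higher at IC5 (summed signal 22861 to 26479 against 14219 to 18710 in controls), 3 of 15 neuron markers were higher and 6 lower (104163 to 110470 against 110571 to 117385), and none of these markers was at 0 in all libraries of a group. Of 10 progenitor markers 3 were higher and 5 lower (78108 to 86219 against 100319 to 107482). Of the neural crest and peripheral neuron markers 1 of the 7 tested was higher and 4 lower (summed over 8 genes, 7004 to 7615 against 8585 to 9336), and of the 7 tested oligodendrocyte lineage markers 0 were higher and 3 lower, OLIG2 and SOX10 among them. Of the 30 channel partners 1 was higher and 16 lower, such as DPP6, a Kv4 partner (-0.56), and NALCN (-0.57). The part of the markers in the result was not tested.

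The 6 groups with DMSO gave shorter lists. Chlorpyrifos IC5 had 30 members called, 13 higher and 17 lower (27.5%, against 19.7% of all genes, 9.92% higher and 9.75% lower), and chlorpyrifos IC20/100 had 22, 6 higher and 16 lower (20.2% against 14.1%, 7.06% and 7.02% by direction). Fluoxetine IC5 had 30, 5 higher and 25 lower (27.5% against 11.4%, 5.47% higher and 5.94% lower), and fluoxetine IC20/100 had 26, 7 higher and 19 lower (23.9% against 14.4%, 6.88% and 7.54% by direction). Methyl mercury IC5 had 26, all lower (23.9% against 10.9%), and methyl mercury IC20/100 had 21, 2 higher and 19 lower (19.3% against 15.8%, 8.21% higher and 7.6% lower). A limma fit of only the 16 libraries compared called 5 members for methyl mercury IC20/100, all lower, and the calls of CACNA1H (adjusted p = 0.0666), CACNG5 (0.174), KCNT2 (0.239), KCNQ3 (0.083), KCNAB3 (0.193) and KCNJ4 (0.107) were among those lost, while CACNA1G (0.0188), CACNG7 and KCNG1 (0.0351 each) and KCNH4 (0.035) stayed called. For methyl mercury IC5, 6.06% of all genes were lower and 4.85% higher.

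T-type calcium channel genes stood in these lists. CACNA1G was at 133, 155 and 194 in controls. With chlorpyrifos it was at 76.6, 106 and 123 at IC5 (-0.58 ± 0.10, adjusted p = 8.3e-06) and 66.9, 94.1 and 114 at IC20/100 (-0.73 ± 0.10). With fluoxetine it was at 71.3, 83.6 and 113 at IC5 (-0.86 ± 0.10) and 68.6, 85.3 and 92.5 at IC20/100 (-0.91 ± 0.10). In each of these groups all 8 libraries lay under the lowest control. With methyl mercury it was at 69.2, 78.4 and 88.1 at IC5 (-0.98 ± 0.10, adjusted p = 1.09e-11) and 60.3, 81.6 and 125 at IC20/100 (-0.84 ± 0.10), again without overlap. In the groups dissolved in medium CACNA1G went the other way at IC5: 159, 218 and 250 with acrylamide (0.43 ± 0.10, adjusted p = 0.000394, overlapping) and 256, 297 and 317 with valproic acid (0.85 ± 0.10, adjusted p = 2.02e-10, no overlap). It was not called at IC20/100 with acrylamide (median 142) or valproic acid (median 130). CACNA1G lies at 50561068 to 50627474 on the plus strand of chromosome 17.

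**Figure D3:**
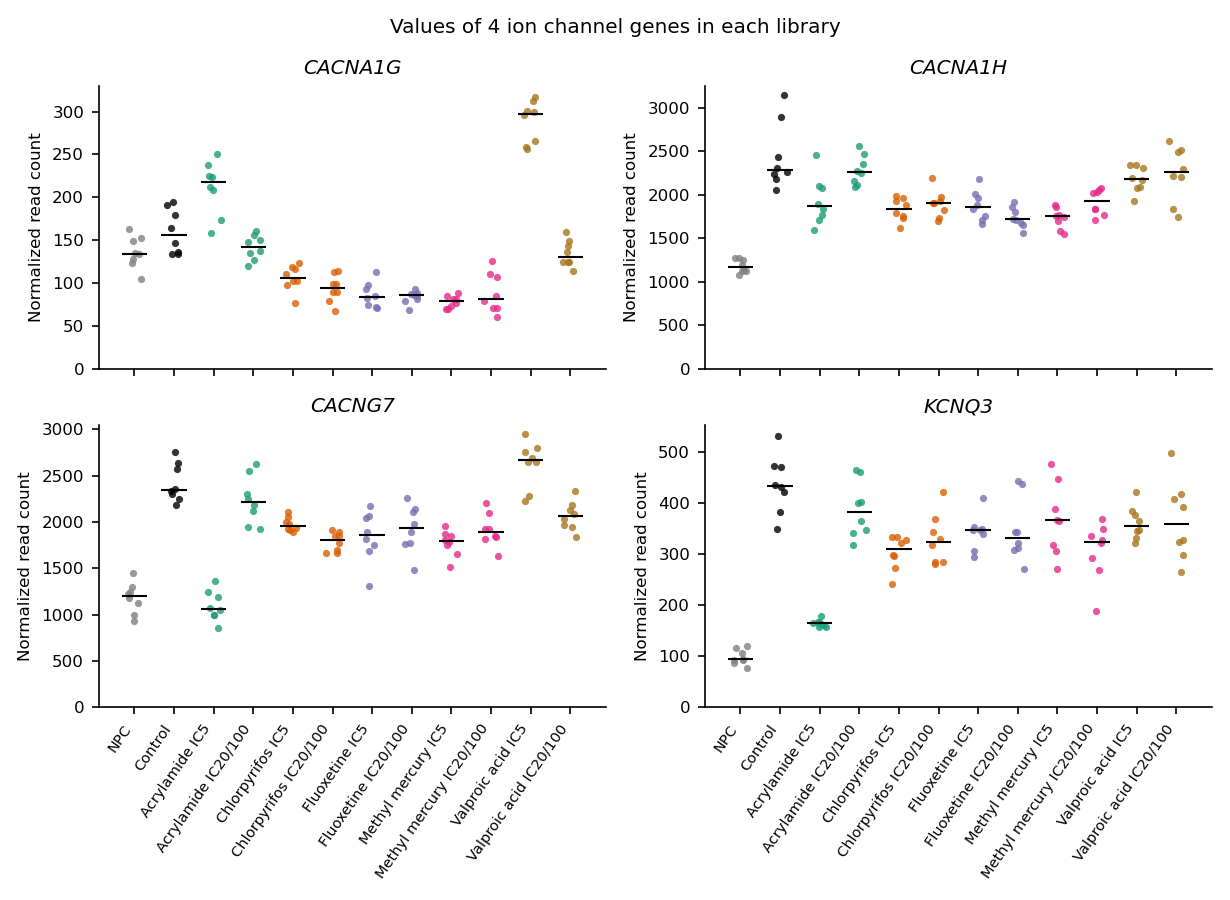
Normalized read count (the deposited signal, linear axis from 0) of CACNA1G, CACNA1H, CACNG7 and KCNQ3 in every library, 1 point per library and 8 per group, with the group median as a line. For CACNA1G every library with DMSO, at 60.3 to 125, lies under the lowest control of 133, and the valproic acid IC5 libraries, at 256 to 317, lie above the highest control of 194.

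CACNA1H was lower in all 6 of these groups too, by -0.32 ± 0.06 to -0.48 ± 0.06, with medians of 1717 to 1928 against 2283. It was lower with acrylamide IC5 as well (1865, -0.34 ± 0.06, adjusted p = 9.9e-07). With valproic acid IC5 it was called at -0.15 ± 0.06 (adjusted p = 0.0407), a call lost in 8 of the 16 fits that left out 1 library, with an adjusted p of up to 0.172. CACNA1I was called lower with acrylamide IC5 (-1.81), chlorpyrifos IC5 (-2.03), fluoxetine IC5 (-2.02), methyl mercury IC20/100 (-2.03) and valproic acid IC5 (-1.68). All 5 calls were lost without control replicate 5 or control replicate 7, with adjusted p-values of 0.0801 to 0.18. The medians of those groups were 54.7 to 74.4 against 109 in controls. The CACNA1I call for valproic acid IC5 was lost in 8 of the 16 fits that left out 1 library.

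The gamma family member CACNG5 was at a median of 165 in controls and at 124 and 104 with chlorpyrifos IC5 and IC20/100, 96.3 and 121 with fluoxetine, and 112 and 101 with methyl mercury, called lower in each. The call for chlorpyrifos IC5 (adjusted p = 0.0225) was lost without control replicate 4 (limma adjusted p = 0.0622) or chlorpyrifos IC5 replicate 8 (0.0647). For methyl mercury IC20/100 the difference was -0.97 ± 0.15, and -0.68 without replicate 8 (adjusted p = 8.89e-10), whose value was 16.4. CACNG7 was lower by -0.29 to -0.44 in these 6 groups, with medians of 1795 to 1956 against 2343. KCNG1, a silent subunit, was lower in all but methyl mercury IC5, by -0.32 to -0.46, from a control median of 475.

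KCNAB3, a Kv1 beta subunit, moved up in the chlorpyrifos and fluoxetine groups and with methyl mercury IC20/100. It was at 161 in controls and at 222 and 209 with chlorpyrifos (0.47 and 0.44), 182 and 210 with fluoxetine (0.29 and 0.40) and 191 with methyl mercury IC20/100 (0.34). Its fluoxetine IC5 call was lost without control replicate 1 (adjusted p = 0.0657) or fluoxetine IC5 replicate 5 (0.0583).

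Further subunits were called in 1 or more exposures, and values are given for some of these. With fluoxetine IC5, SCN3B was at 2222, 2460 and 2506 against 1945, 2023 and 2115 (0.24 ± 0.04, adjusted p = 1.01e-05) and HCN3 at 1436, 1508 and 1608 against 1033, 1249 and 1363 (0.31 ± 0.05), both without overlap. With methyl mercury IC5 SCN3B was lower instead, at 1681, 1784 and 1854 (-0.22 ± 0.04, adjusted p = 8.78e-05). Also lower there were KCNN3 (median 223 against 388, -0.69 ± 0.20), KCNIP1 (181 against 241, -0.39 ± 0.09), KCNK3 (110 against 148, -0.47 ± 0.13), CACNA1A (620 against 769, -0.31 ± 0.09) and HCN4 (584 against 674, -0.22 ± 0.04). With chlorpyrifos IC5 the higher genes included the two-pore channel gene KCNK9 (143 against 57.7, 1.03 ± 0.26), KCND2 (254 against 118, 0.83 ± 0.23), KCNIP4 (358 against 280, 0.42 ± 0.09) and CACNG4 (3452 against 2869, 0.27 ± 0.03, adjusted p = 2.57e-10).

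Neuron markers moved with methyl mercury IC5: 10 of 15 were lower and 0 higher, with a summed signal of 97714 to 106233 against 110571 to 117385 in controls. With fluoxetine IC5 1 was higher and 1 lower (107756 to 114418), and with chlorpyrifos IC5 4 were higher and 1 lower (114197 to 122012). At IC20/100 the neuron markers lower were 1 for chlorpyrifos, 2 for fluoxetine and 4 for methyl mercury, with 0 higher. Dividing cell markers were higher for 7 of 10 with chlorpyrifos IC5 (18720 to 20782), 2 with fluoxetine IC5 (14678 to 16850) and 5 with methyl mercury IC5 (16756 to 23364), and at IC20/100 for 5, 5 and 3 in the same order, with 0 lower in all 6 groups. Of 10 progenitor markers 5, 6 and 2 were lower at IC5 and 5, 7 and 5 at IC20/100, with 1 or 2 higher in each group. Of the oligodendrocyte lineage markers, OLIG1, OLIG2 and SOX10 had medians of 12.8, 38.7 and 12.7 in controls. The part of these markers in the channel differences was not tested.

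Valproic acid IC5 was the only IC5 group with more members higher than lower: 23 higher and 16 lower of 109 (35.8%, against 26.9% of all genes, 14.5% higher and 12.4% lower). Valproic acid inhibits histone deacetylases and is used against epilepsy, where sodium and T-type calcium channels are among its described targets. KCNIP4 was at 445, 484 and 576 against 216, 280 and 303 (0.85 ± 0.09, adjusted p = 5.43e-12). KCNAB3 was at 225, 252 and 292 against 129, 161 and 173 (0.71 ± 0.09, adjusted p = 5.46e-10). Neither gene's groups overlapped.

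Other genes higher with valproic acid IC5 were the silent subunit KCNS3 (median 46.5 against 16.9, 1.32 ± 0.17), KCNK5 (51.6 against 29.9, 0.75 ± 0.15), CACNG5 (278 against 165, 0.70 ± 0.15), CACNG8 (327 against 226, 0.50 ± 0.06) and KCNJ12 (64.2 against 35.1, 0.85 ± 0.15, with the reservation about KCNJ18). Of the accessory potassium channel genes 4 were higher and 0 lower. The L-type gene CACNA1D was called lower, at 149 against 221 (-0.51 ± 0.14). CACNA1C was called lower too, at 278 against 380 (-0.52 ± 0.20, adjusted p = 0.0432). The CACNA1C call was lost in 10 of 16 fits without 1 library, with an adjusted p of up to 0.11. CACNA1F, the other L-type gene tested in the exposures, was not called. HCN4 was lower at 527, 547 and 649 against 664, 674 and 768 (-0.30 ± 0.04, adjusted p = 3.79e-08). The main sodium channel gene of immature axons, SCN2A, was not called (-0.03 ± 0.07, adjusted p = 0.847). Here 11 of the 30 channel partners were higher, such as the Kv4 partner DPP10 (0.83), and 4 lower. Of the dividing cell markers 8 of 10 were higher (18625 to 23235), and 3 of 15 neuron markers were higher and 2 lower. Of 10 progenitor markers 6 were higher and 3 lower, with a summed signal of 97477 to 106912 against 100319 to 107482 in controls. The part of these partners and markers in the result was not tested.

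The rule for named genes took those called the same way in at least 6 of the 10 exposures. Since all exposures share the controls, the number of exposures that call a gene is a selection and no evidence of its own. The genes called lower were CACNA1H, KCNH4, CACNG5, KCNJ4, CACNG7, KCNJ9, KCNQ3, CACNA2D2, KCNT2, CACNG6, KCNG1 and CACNA1G. KCNAB3 was called higher in 6. The KCNQ3 calls for fluoxetine IC5 and valproic acid IC5 were lost in 5 and 9 of 16 fits without 1 library, with adjusted p-values of up to 0.0795 and 0.109.

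**Figure D4:**
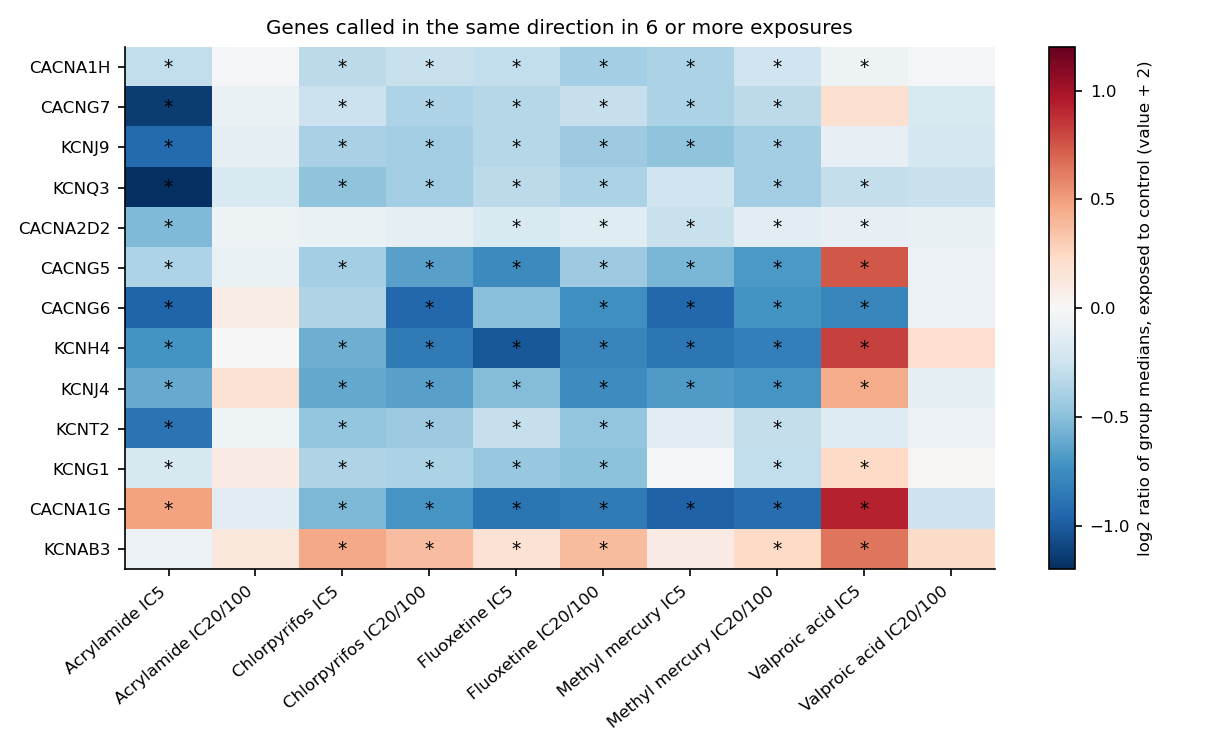
Log2 ratio of the exposed to the control median, each with 2 added (colour), for 13 channel genes called the same way in 6 or more exposures (y axis), in each of the 10 exposures (x axis), with an asterisk for a call; all exposures share the same 8 controls. The deepest blue is at KCNQ3 and CACNG7 under acrylamide IC5, with medians of 164 against 434 and 1062 against 2343, and KCNH4 is red with its call under valproic acid IC5 (61.8 against 34.2).

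KCNH4 and KCNJ4 were among these genes and were lower in 7 exposures and higher with valproic acid IC5. KCNH4 encodes an ELK channel and was at 23.4, 34.2 and 48.6 in controls, at medians of 15.8 to 22.1 in the DMSO groups, at 20 with acrylamide IC5 (-0.81 ± 0.16) and at 50.6, 61.8 and 77.9 with valproic acid IC5 (0.81 ± 0.15, adjusted p = 1.97e-05). KCNJ4 (Kir2.3, a strong inward rectifier) was at 68.2, 80.5 and 104 in controls, at medians of 46.8 to 55.5 in the DMSO groups, at 52.3 with acrylamide IC5 (-0.74 ± 0.11) and at 95.3, 110 and 119 with valproic acid IC5 (0.42 ± 0.11). In the same order of groups, KCNT2 was at a median of 392 in controls and at 282 to 323 in the 5 DMSO groups where it was called. With valproic acid IC5, CACNG6 was called lower and KCNT2 was not called. The promoters of KCNH4, KCNJ4, KCNT2 and CACNG6 are shown, since each gene was called lower in at least 6 exposures, though not in the same ones. They are the 250 bases before the annotated start, from RefSeq (GRCh38.p14), 5′ to 3′ on the strand of the gene, in lower case, with capitals for every match to a searched motif. They lie at chr17:42181143-42181392 (minus strand), chr22:38444029-38444278 (minus), chr1:196608441-196608690 (minus) and chr19:53991387-53991636 (plus) in the order given. The windows of KCNJ4 and KCNT2 lie inside the gene as annotated in GENCODE 29, which begins at 38455199 and 196609225 on the minus strand. That of KCNH4 lies partly inside its gene, which begins there at 42181278 on the minus strand. The CACNG6 window ends at 53991636, before the start of its gene there at 53992288. The motif matches in all these windows hold for the RefSeq start only, and other starts were not searched.
KCNH4: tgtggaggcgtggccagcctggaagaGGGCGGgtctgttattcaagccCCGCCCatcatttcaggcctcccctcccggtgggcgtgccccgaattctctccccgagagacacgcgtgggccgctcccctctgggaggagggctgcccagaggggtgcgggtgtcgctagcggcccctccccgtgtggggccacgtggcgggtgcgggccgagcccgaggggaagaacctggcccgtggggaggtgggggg
KCNJ4: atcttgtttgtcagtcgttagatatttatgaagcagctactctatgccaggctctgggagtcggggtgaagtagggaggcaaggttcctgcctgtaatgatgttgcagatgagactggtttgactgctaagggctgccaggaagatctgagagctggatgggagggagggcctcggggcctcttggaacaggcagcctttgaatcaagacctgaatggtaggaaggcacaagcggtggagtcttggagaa
KCNT2: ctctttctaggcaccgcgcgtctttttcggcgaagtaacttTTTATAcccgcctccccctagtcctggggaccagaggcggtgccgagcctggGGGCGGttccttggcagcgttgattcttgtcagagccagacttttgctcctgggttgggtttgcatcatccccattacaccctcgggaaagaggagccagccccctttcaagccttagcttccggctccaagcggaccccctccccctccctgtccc
CACNG6: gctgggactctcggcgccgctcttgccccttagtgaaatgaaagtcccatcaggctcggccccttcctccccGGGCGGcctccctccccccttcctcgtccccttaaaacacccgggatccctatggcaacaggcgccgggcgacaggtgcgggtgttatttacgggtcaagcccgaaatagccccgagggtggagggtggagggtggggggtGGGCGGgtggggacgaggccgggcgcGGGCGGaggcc
The motifs searched on both strands were the GC box GGGCGG, the cAMP response element TGACGTCA and its shorter core TGACG (which every full element contains), the CCAAT box, the TATA box TATAAA and the E box CAGCTG. KCNH4 held 2 GC boxes in 72.4% G or C, CACNG6 3 in 69.2%, KCNT2 1 GC box and 1 TATAAA on the opposite strand in 60.4%, and KCNJ4 no searched motif in 52.4%. RefSeq promoters were found for 100 of the 139 members. A GC box stood in 59 of these 100 and in 42.3% of all 27305 promoters of the same length, CAGCTG in 19 and 13.8%, the full cAMP element in 1 and 1.8%, its core in 18 and 21.7%, CCAAT in 28 and 33%, and TATAAA in 7 and 11.1%. The median G or C content was 65% for the members and 58% for all promoters. A match is a string in the window and no evidence of binding.

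Both concentrations of a compound were compared directly, which leaves out the controls. Acrylamide IC5 differed from IC20/100 in 46 members, 11 higher and 35 lower (42.2%, against 41.1% of all genes, 20% higher and 21.1% lower). KCNF1 (-1.60 ± 0.15), KCNQ3 (-1.25 ± 0.10) and CACNG7 (-1.02 ± 0.07, medians 1062 and 2217) were lower at IC5, each without overlap. Valproic acid IC5 differed from IC20/100 in 32 members, 22 higher and 10 lower (29.4% against 17%, 9.73% higher and 7.27% lower). CACNA1G was higher at 256, 297 and 317 against 114, 130 and 159 (1.06 ± 0.10, adjusted p = 2.1e-13), followed by KCNS3 (1.06 ± 0.18), KCNJ12 (0.96 ± 0.15), CACNG5 (0.81 ± 0.15), KCNIP2 (0.79 ± 0.15), KCNH4 (0.79 ± 0.16) and KCNIP4 (0.73 ± 0.09).

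For the compounds in DMSO, which both concentrations of a compound shared, few members separated the concentrations. Chlorpyrifos IC5 and IC20/100 differed in 0 members, where 0.0497% of all genes were called; 12 members had an unadjusted p under 0.05, and edgeR and DESeq2 on recovered reads called 0 each. Fluoxetine differed in 5 (4.59% against 3.76%, 2.3% higher and 1.46% lower): HCN3 (0.26 ± 0.05), KCNMB1 (0.66 ± 0.12) and SCN3B (0.17 ± 0.04) were higher at IC5, and KCNK5 (-0.52 ± 0.15) and CACNG8 were lower. Methyl mercury differed in 7 (6.42% against 5.17%, 2.58% higher and 2.6% lower), which included KCNG1, higher at IC5, and KCNF1 (-0.68 ± 0.15), SCN3B (-0.16 ± 0.04), HCN3 (-0.18 ± 0.05), KCNH2 and CACNA2D2, lower. The HCN3 difference was lost in 7 of 16 fits without 1 library, with an adjusted p of up to 0.128. Without methyl mercury IC20/100 replicate 8 the count for methyl mercury was 8.

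Single libraries held very high values of some channel genes while the rest of the group did not. A library was counted as jumping when its value was above 3 times its group's median and that median was at least 30. Of 967 gene and group combinations of members 41 (4.24%) had such a library, against 2811 of 155006 (1.81%) for other protein-coding genes. SCN1A jumped in 11 libraries of 7 groups, KCND1 in 7, CACNA1I and KCNC4 in 5 each, and KCNJ11 in 3. CACNA1I held 2762 in chlorpyrifos IC20/100 replicate 2, 3144 in fluoxetine IC20/100 replicate 8 and 3485 in methyl mercury IC5 replicate 7, where the other 7 libraries of each group lay between 32.0 and 81.2. SCN8A held 5773 in acrylamide IC5 replicate 7 and 5494 in valproic acid IC20/100 replicate 2, where the others of the 2 groups lay between 1157 and 1673.

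**Figure D5:**
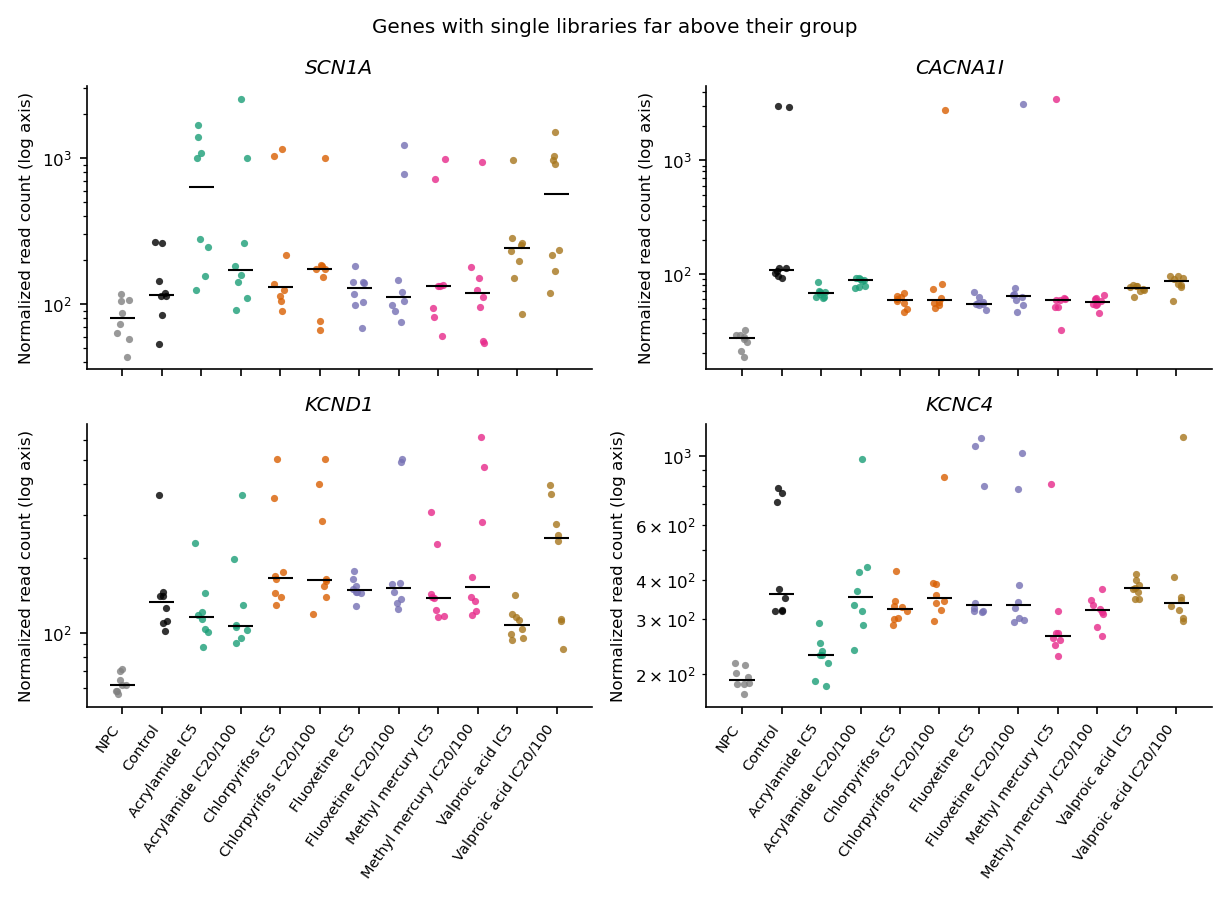
Normalized read count (the deposited signal, log axis) of SCN1A, CACNA1I, KCND1 and KCNC4, 1 point per library by group, with the group median as a line. CACNA1I shows single libraries at 2762, 3144 and 3485 in groups whose other libraries stay at or under 81.2, SCN1A is high in 11 libraries over 7 groups, and KCNC4 reaches 1151 in valproic acid IC20/100, where its median is 338.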

How the data were processed

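Polyadenylated RNA of 96 libraries was analysed from a table of 58434 genes. Its unit is a signal that the authors deposited: gene counts over a size factor for each library. Per the submitters' processing notes, bcl2fastq, FastQC 0.11.8, MultiQC 1.0, Salmon 1.3.0, DESeq2 1.30.0 and GRCh38 were used, with no annotation release named in the sources used here. Whole reads were recovered from all columns (100% of the values within 0.001 read) for edgeR 4.0.16 and DESeq2 1.42.0. Positions, biotypes and exon lengths came from GENCODE 29, matched by gene identifier (58171 genes, 47041 with the same version).

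Differences were tested with limma 3.58.1 (R 4.3.3, trended prior) on log2(deposited value + 2), which understates the change of low genes. Genes needed 10 or more in 8 libraries of a fit to be tested, with group and sequencing run (6 runs) as terms. Differentiation used 16 libraries (9 residual degrees of freedom) and the exposures all 88 day 10 libraries (72), which share 1 estimate of the spread. P-values were adjusted by Benjamini-Hochberg over all genes tested and called under 0.05. A self-test on simulated differentiation data recovered 70.4% of 1.5-fold and 99% of 2-fold changes, and one on acrylamide IC5 62% and 95%. False calls numbered 13 of 18232 and 11 of 19752 genes tested. The simulation gave every gene the same dispersion, with no run effect and no single-library jumps. Recovery for channel genes with such jumps is therefore not known.

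The members, role groups and lists were chosen with earlier results of these data known. Named genes were the 5 largest rises and falls per comparison among called members (1.5-fold or more, higher mean 30 or more), a set of standing channel genes, and members called the same way in at least 6 of 10 exposures; some of them are not reported here. Other named members were chosen after their values were seen, as was placing SCN7A with the sodium channel pore subunits. In 0 of 336 within-group pairs did libraries differ by no more than counting error. Same-numbered libraries were not paired: in 0 comparisons was every correlation above 0.1 (highest median 0.125). Alternatives were another pseudocount, no filter, TMM scaling, no run term, a replicate block, other tools, other sets of libraries and robust regression.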

Additional observations from a re-analysis of the deposited data

Results flagged for a closer look

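Within a group of 8, the highest or lowest library was compared with the others by Dixon's ratio of its gap to the group's range. Of 484 combinations of a named channel gene and a group, 58 had a library that lay apart in this way, over 39 libraries, where chance gives about 1 in 20. In each case the value of that library is followed by the range of the other libraries of its group. Methyl mercury IC20/100 replicate 8 held 11 of them. It was low for CACNA1B (614, 894 to 1043), CACNG5 (16.4, 97.1 to 120), KCNT2 (147, 277 to 364), SCN8A (476, 1155 to 1449) and SCN9A (162, 343 to 446). It was high for CACNB3 (2156, 1173 to 1532), CACNG4 (3647, 2779 to 3179), KCNH2 (1697, 1143 to 1342), KCNIP1 (292, 182 to 216), KCNJ4 (91.6, 30.9 to 56.6) and KCNK5 (45.4, 26.5 to 33.2).

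Calcium channel genes with a library apart were as follows. CACNA1A held 792 in acrylamide IC5 replicate 1 (others 534 to 641) and 939 in chlorpyrifos IC20/100 replicate 1 (others 646 to 767). CACNA1C held 687 in acrylamide IC5 replicate 6 (others 212 to 410). CACNA1D held 313 in methyl mercury IC5 replicate 6 (others 168 to 233). CACNA1E held 481 in NPC replicate 6 (others 48.8 to 210). CACNA1I held 85.5 in acrylamide IC5 replicate 1 (others 61 to 70.9), 2762 in chlorpyrifos IC20/100 replicate 2 (others 50.3 to 81.2), 3144 in fluoxetine IC20/100 replicate 8 (others 46 to 75.1) and 3485 in methyl mercury IC5 replicate 7 (others 32 to 61.5). CACNG5 held 85.6 in acrylamide IC5 replicate 3 (others 119 to 144) and 143 in fluoxetine IC20/100 replicate 1 (others 109 to 125).

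Sodium channel genes with a library apart were as follows. SCN1A held 2543 in acrylamide IC20/100 replicate 3 (others 91 to 1004), 1001 in chlorpyrifos IC20/100 replicate 5 (others 66.7 to 186), 943 in methyl mercury IC20/100 replicate 7 (others 54.6 to 180) and 972 in valproic acid IC5 replicate 4 (others 85.6 to 284). SCN2A held 492 in valproic acid IC20/100 replicate 6 (others 644 to 756). SCN8A held 5773 in acrylamide IC5 replicate 7 (others 1458 to 1673), 1815 in fluoxetine IC20/100 replicate 5 (others 1272 to 1524) and 5494 in valproic acid IC20/100 replicate 2 (others 1157 to 1450). SCN9A held 629 in fluoxetine IC5 replicate 6 (others 378 to 459).

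Kv and calcium-activated potassium channel genes with a library apart were as follows. KCNA4 held 102 in acrylamide IC20/100 replicate 5 (others 31.7 to 46.5) and 66.8 in valproic acid IC20/100 replicate 6 (others 32.3 to 40.9). KCNA5 held 48.1 in acrylamide IC20/100 replicate 3 (others 28.4 to 37.2). KCND1 held 360 in control replicate 8 (others 102 to 146), 362 in acrylamide IC20/100 replicate 4 (others 91 to 199) and 231 in acrylamide IC5 replicate 3 (others 87.4 to 145). KCND2 held 408 in acrylamide IC20/100 replicate 6 (others 98.6 to 245) and 215.2 in chlorpyrifos IC20/100 replicate 4 (others 118 to 160). KCNMA1 held 454 in acrylamide IC20/100 replicate 4 (others 179 to 250) and 486 in chlorpyrifos IC20/100 replicate 5 (others 174 to 318). KCNN1 held 874 in fluoxetine IC20/100 replicate 8 (others 287 to 563). KCNQ3 held 180 in acrylamide IC5 replicate 2 (others 157 to 168).

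Accessory, inward rectifier and two-pore channel genes with a library apart were as follows. KCNIP1 held 222 in acrylamide IC5 replicate 5 (others 145 to 174), 297 in chlorpyrifos IC20/100 replicate 8 (others 178 to 230) and 274 in fluoxetine IC20/100 replicate 4 (others 183 to 214). KCNIP2 held 242 in control replicate 6 (others 85.5 to 136) and 175 in methyl mercury IC20/100 replicate 5 (others 104 to 133). KCNIP4 held 418 in chlorpyrifos IC5 replicate 8 (others 324 to 368), 395 in methyl mercury IC5 replicate 4 (others 223 to 269) and 576 in valproic acid IC5 replicate 4 (others 445 to 504). KCNJ12 held 47.2 in control replicate 5 (others 30.9 to 37.4). KCNJ4 held 93.6 in valproic acid IC20/100 replicate 1 (others 68.5 to 80.3). KCNJ6 held 170 in acrylamide IC5 replicate 7 (others 91.4 to 118) and 85.9 in fluoxetine IC20/100 replicate 3 (others 117 to 138). KCNJ9 held 75.5 in fluoxetine IC20/100 replicate 6 (others 95.5 to 101). KCNK5 held 12.5 in chlorpyrifos IC5 replicate 2 (others 29.7 to 40.2). KCNK9 held 149 in control replicate 3 (others 43.5 to 83.7).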

How the results depend on the processing

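Of 199 named results 0 reversed under any alternative, 149 stayed called under every one that was run, and 50 lost their call at least once, 38 of them when 1 library was left out. Per alternative, the calls lost were 0 with a pseudocount of 1 or of 10, 21 with no filter on low values, 1 with TMM scaling, 5 with no run term, 1 with robust regression, 4 with edgeR, 2 with DESeq2 and, out of 172, 33 when only the 16 libraries compared were fitted and 1 when methyl mercury IC20/100 library 8 was omitted. Robust regression was chosen after seeing the data.

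Counts of called members that moved by over 1.5 times were the following. With robust regression they were 2 for acrylamide IC20/100, 35 for chlorpyrifos IC20/100, 43 for fluoxetine IC20/100, 40 for methyl mercury IC5, 13 for valproic acid IC20/100, and 4, 14 and 16 for the concentrations of chlorpyrifos, fluoxetine and methyl mercury. With DESeq2 acrylamide IC20/100 had 1 and valproic acid IC20/100 had 4, and with edgeR the latter had 1. In a fit of the 16 libraries compared, methyl mercury IC20/100 had 5 and its difference between concentrations 0. Omitting methyl mercury IC20/100 library 8 gave 4 for valproic acid IC20/100 and 1 between the chlorpyrifos concentrations. The cause of these moves was not tested.

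With 1 library left out, the counts ranged from 83 to 86 for differentiation, 46 to 51 for acrylamide IC5, 0 to 0 for acrylamide IC20/100, 26 to 32 and 19 to 25 for chlorpyrifos IC5 and IC20/100, 23 to 30 and 20 to 26 for fluoxetine, 22 to 27 and 21 to 26 for methyl mercury, and 31 to 40 and 0 to 1 for valproic acid. Between concentrations they ranged from 43 to 47 for acrylamide, 0 to 0 for chlorpyrifos, 4 to 6 for fluoxetine, 6 to 9 for methyl mercury and 26 to 32 for valproic acid. With a replicate block in place of run the counts were 84 for differentiation, 48 and 0 for acrylamide IC5 and IC20/100, 29 and 21 for chlorpyrifos, 31 and 24 for fluoxetine, 26 and 24 for methyl mercury, 40 and 0 for valproic acid, and 46, 0, 5, 8 and 34 between the concentrations in the same order of compounds. The block changed 2 of the named calls. Values under about 10 signal units rest on few reads.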
